A study of Mus musculus with 5 samples.

Results

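The 8 S100 genes S100a1, S100a3, S100a4, S100a6, S100a11, S100a13, S100a16 and S100b were followed in RNA pulled down together with SMN (survival of motor neuron), the protein deficient in spinal muscular atrophy. They were taken by name, as every probe set whose only gene symbol is one of the 8, which gave 9 of the 28187 tested probe sets and 8 of 19937 named genes; S100a11 has 2 probe sets. The genes were chosen by their log2 differences between the same 2 groups of precipitates, so the differences below describe these arrays and carry no independent test. The FLAG-SMN IP group holds 3 arrays of anti-FLAG precipitates from NSC-34 cells carrying a 3XFLAG-flSMN construct. The control IP group holds 2 arrays of the same precipitation from NSC-34 cells with no FLAG construct, so it measures RNA held back without a tagged protein. NSC-34 is a mouse motor neuron-like hybrid line of neuroblastoma and spinal cord cells. Both groups were kept in 10% serum, differentiated in 1% serum (3 days in one protocol, 48 hours before doxycycline in the other), given doxycycline at 3 µg/ml for 3 days and irradiated with ultraviolet light at 400 mJ/cm2. Neither the promoter behind the construct nor the clonal origin of the line is stated in the labels. RNA of the lysates was not analysed here, so less S100 RNA in a precipitate and less S100 RNA in the cells it came from cannot be told apart.

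S100 proteins are small calcium-binding proteins of the EF-hand type, a helix-loop-helix fold whose loop holds the calcium ion. They work mostly as dimers: calcium opens a hydrophobic face that grips a target, such as an annexin, a myosin chain or a calcium pump, and some members are also secreted and act on the receptor RAGE, encoded by Ager. In nervous tissue S100b is best known from astrocytes and Schwann cells, S100a1 from neurons as well as heart muscle, and S100a6 from many dividing and differentiating cells.

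In the mouse gene table used, of assembly GRCm38.p6, 7 of the 8 genes lie on chromosome 3 and S100b lies on chromosome 10. Start regions show how close some of them are. S100a1 and S100a13 are read in opposite directions, and the starts of their windows enclose only 104 bases. Their annotated spans overlap, so these starts cannot bound both spans. Over all arrays the log2 differences (FLAG-SMN IP minus control IP) were -1.09 for S100a1 and -0.14 for S100a13. Their confidence intervals, -1.66 to -0.52 and -0.85 to 0.57, overlapped, and the difference between the 2 genes was not tested. Without control IP replicate 2 the values were -0.90 and -0.60, and without control IP replicate 1 they were -1.28 and 0.32. The stretch of 104 bases is printed because of the values over all arrays. It is written on the strand of S100a13 (plus), at chr3:90514331-90514434, build GRCm38.p6, from RefSeq. By these starts S100a1 begins to the left of its first base and S100a13 to the right of its last.
S100a1 and S100a13: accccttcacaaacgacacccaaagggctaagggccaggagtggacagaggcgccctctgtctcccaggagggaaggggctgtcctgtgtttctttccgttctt

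All 8 genes had a start window in the RefSeq promoter table (12 windows in all, 250 bases before to 50 after a start). Upstream stretches of 100 bases follow for S100a4, for 1 of the 2 starts of S100a16, and for S100a11, to show how differently built these starts are; all lie on the plus strand of GRCm38.p6, and capitals mark matches, on either strand, to the TATA box TATAAA, to the AP-1 site TGANTCA, to the GC box GGGCGG or to the CCAAT box. The S100a4 stretch is chr3:90603670-90603769, that of S100a16 is chr3:90541046-90541145, and that of S100a11 is chr3:93520396-93520495.
S100a4: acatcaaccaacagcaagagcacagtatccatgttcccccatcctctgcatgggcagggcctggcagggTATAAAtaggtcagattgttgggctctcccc
S100a16: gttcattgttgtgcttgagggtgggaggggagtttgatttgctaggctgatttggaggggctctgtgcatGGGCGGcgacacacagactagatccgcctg
S100a11: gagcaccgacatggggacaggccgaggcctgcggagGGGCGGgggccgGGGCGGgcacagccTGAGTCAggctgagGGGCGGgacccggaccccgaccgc

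Over the full windows, the TATA box was found in 2 of the 12 windows of the 8 genes (in S100a3 and S100a4) and in 13.6% of the 32851 mouse windows of that length. The AP-1 site was found in 2 (S100a11 and S100a16) against 7.81% of all windows, the GC box in 3 (S100a3, S100a11 and S100a16) against 35.7%, and the CCAAT box in 3 (S100a3, S100a6 and S100b) against 37.4%. None of the 4 motifs matched in the single windows of S100a1 or S100a13. These are matches of letters and not measured binding sites. In the printed stretches no match overlaps another.

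The deposited values are RMA values on the log2 scale, 1 unit being a 2-fold step. FLAG-SMN IP replicate 1 was the least like its group: across the tested probe sets its Pearson r was 0.964 and 0.968 with replicates 2 and 3, which reached 0.989 with each other. The 2 control IP arrays reached 0.98 (r across probe sets, which are not independent replicates). Between the groups r ran from 0.954 to 0.977. FLAG-SMN IP replicate 2 with control IP replicate 1, and replicate 3 with control IP replicate 2, both reached 0.977. Each thus correlated more with a control IP array than with FLAG-SMN IP replicate 1. Smn1 had log2 values of 9.89, 9.50 and 9.46 in FLAG-SMN IP, against 8.10 and 7.64 in control IP. Marker genes listed for the labelled cell type were uneven: Prph, which encodes the intermediate filament peripherin of motor and peripheral neurons, averaged 10.89 ± 0.55 (SD, n = 3) in FLAG-SMN IP and 10.61 ± 0.35 (SD, n = 2) in control IP, while Chat, the acetylcholine synthesis enzyme that defines cholinergic neurons, averaged 4.54 ± 0.15 in FLAG-SMN IP and 4.45 ± 0.23 in control IP. The presumed control probe sets, which carry no gene name, had array medians of 4.30 to 4.45 in FLAG-SMN IP and 4.49 to 4.55 in control IP, so Chat lay at about their level.

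S100a16, S100a1 and S100a3 were each about 2-fold lower in FLAG-SMN IP than in control IP, and S100a4 was 1.6-fold lower. In these 4 genes every FLAG-SMN IP array lay below both control IP arrays. S100a6, S100b, S100a13 and S100a11 had smaller differences, and their groups overlapped. By the fit across all probe sets (limma, Benjamini-Hochberg adjusted over 28187), 0 of the 9 S100 probe sets passed the threshold of 0.05, with adjusted p from 0.161 to 0.987; over all tested probe sets 9 passed, or 0.0319% (0.0177% lower and 0.0142% higher). At an unadjusted p under 0.05, 4 of the 9 were lower and 0 higher in FLAG-SMN IP, where 6.31% of all tested probe sets were lower and 4.14% higher. Groups were apart with FLAG-SMN IP lower at 4 of the 9, against 13.2% of all, and with FLAG-SMN IP higher at 0 of the 9, against 12.1%. At least 2-fold lower were 3 of the 9, against 1.73% of all, and at least 2-fold higher were 0 of the 9, against 1.42%. Differences were below 0 at 8 of the 9, against 46.9% of all. The genes were picked with these values known, so nothing is read from those counts beyond the genes themselves. The labels do not say that replicates came from separate cultures, so the spread between them may be technical.

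**Figure D1:**
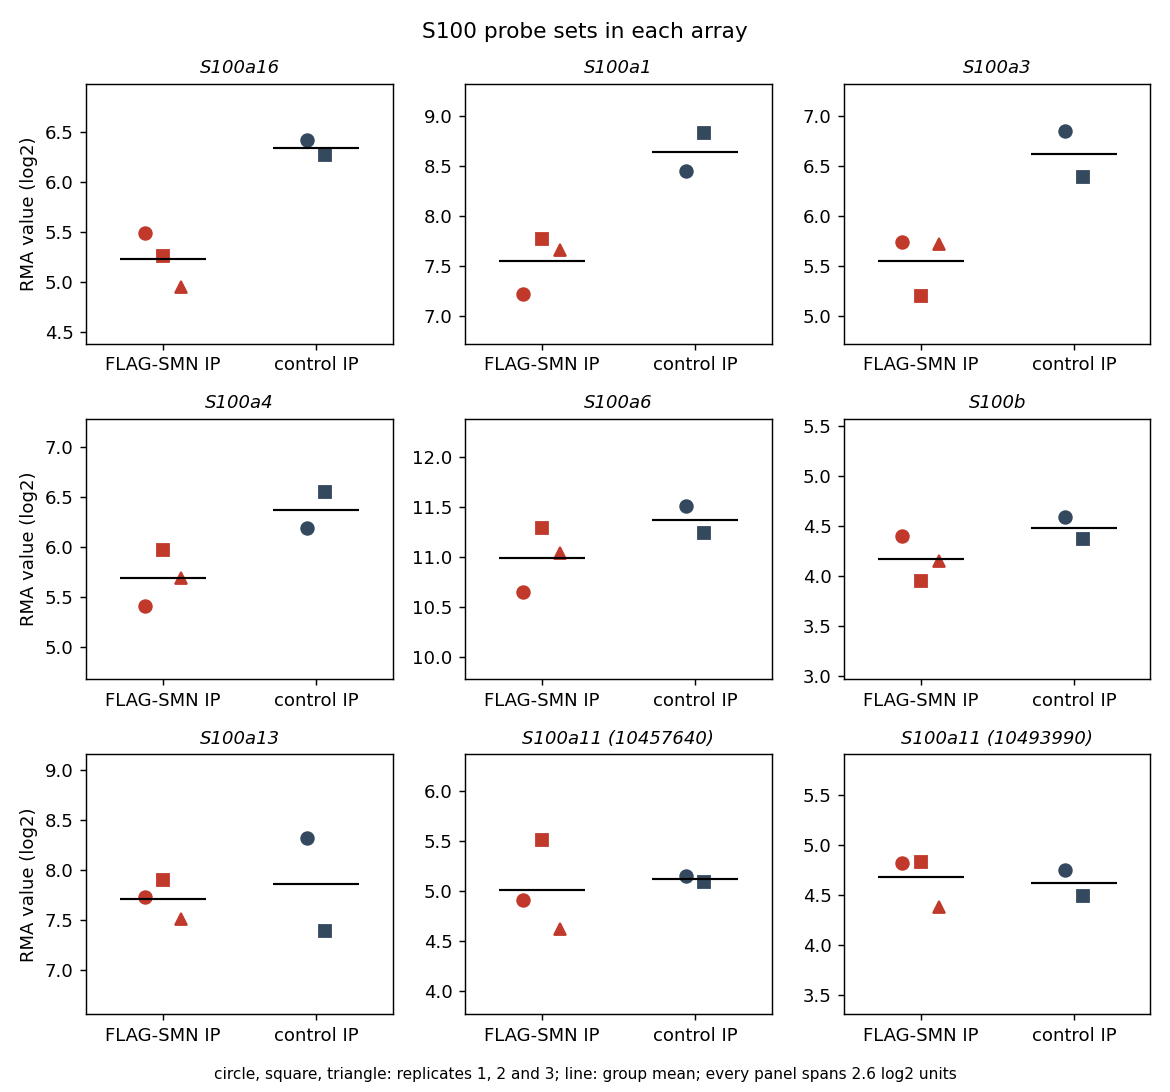
RMA values (log2) of the 9 S100 probe sets, FLAG-SMN IP on the left and control IP on the right of each panel; points are arrays, lines are group means, and every panel spans the same height. In the panels of S100a16, S100a1, S100a3 and S100a4 all FLAG-SMN IP arrays sit below both control IP arrays, and in the other panels the groups overlap.

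S100a16, a broadly expressed member of the family, had log2 values of 5.50, 5.26 and 4.95 in FLAG-SMN IP, against 6.42 and 6.27 in control IP. The lowest control array lay 0.77 above the highest FLAG-SMN array, the widest such gap among the 9 probe sets. Its mean was 5.24 ± 0.27 (SD, n = 3) in FLAG-SMN IP and 6.35 ± 0.11 (SD, n = 2) in control IP, a log2 difference of -1.11 (SE 0.22; 95% confidence interval -1.63 to -0.59), or 2.16-fold lower. This was the one S100 probe set that passed the adjusted threshold under any alternative: without FLAG-SMN IP replicate 1 its difference was -1.24 with limma adjusted p = 0.0451, a setting in which 350 probe sets passed in all. Over the other alternatives its adjusted p ran up to 0.614.

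S100a1 encodes a protein that binds the ryanodine receptor and the calcium pump of the endoplasmic reticulum in muscle, and synapsins in neurons. Its log2 values were 7.22, 7.77 and 7.66 in FLAG-SMN IP, against 8.45 and 8.83 in control IP. The 2 groups stood 0.68 apart at their nearest arrays. The means were 7.55 ± 0.29 (SD, n = 3) in FLAG-SMN IP and 8.64 ± 0.27 (SD, n = 2) in control IP, and the log2 difference was -1.09 (SE 0.24; 2.13-fold lower). It exceeded 83.5% to 87.5% of the presumed control probe sets in FLAG-SMN IP, and 90.5% to 92.0% of them in control IP. S100a1 was thus brighter than most presumed controls in each of the 5 arrays.

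S100a3, a cysteine-rich and zinc-binding member known from the hair cuticle, had log2 values of 5.74, 5.20 and 5.72 in FLAG-SMN IP, against 6.85 and 6.39 in control IP. FLAG-SMN IP replicate 2 was the lowest array, and the groups were 0.65 apart. The log2 difference was -1.06 (SE 0.25; 2.09-fold lower). S100a4, which encodes metastasin, a partner of non-muscle myosin, had values of 5.41, 5.97 and 5.69 in FLAG-SMN IP and of 6.19 and 6.55 in control IP. Here the gap between the groups was 0.22, smaller than the SD within either group (0.28 in FLAG-SMN IP and 0.25 in control IP). Its log2 difference was -0.68 (SE 0.23; 95% confidence interval -1.23 to -0.12). Without FLAG-SMN IP replicate 3 the unadjusted p of S100a4 was 0.0572, and without control IP replicate 2 it was 0.143, so it missed an unadjusted p of 0.05 in both.

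The brightness of S100a16, S100a3 and S100a4 limits how their folds can be read. In FLAG-SMN IP they exceeded 61.3% to 74.1% of the presumed control probe sets, and in control IP 74.9% to 80.9%. Some presumed controls are bright themselves, as S100a1 exceeded only 83.5% to 92.0% of them. By their means over all arrays the 3 genes were brighter than 54.7% to 58.6% of all tested probe sets. No detection calls were used, and a fold of a probe set close to the presumed controls may understate the difference in RNA. The medians of the presumed controls were themselves lower in FLAG-SMN IP (4.30 to 4.45) than in control IP (4.49 and 4.55), the direction of these folds. The part of that shift in the folds was not tested.

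**Figure D2:**
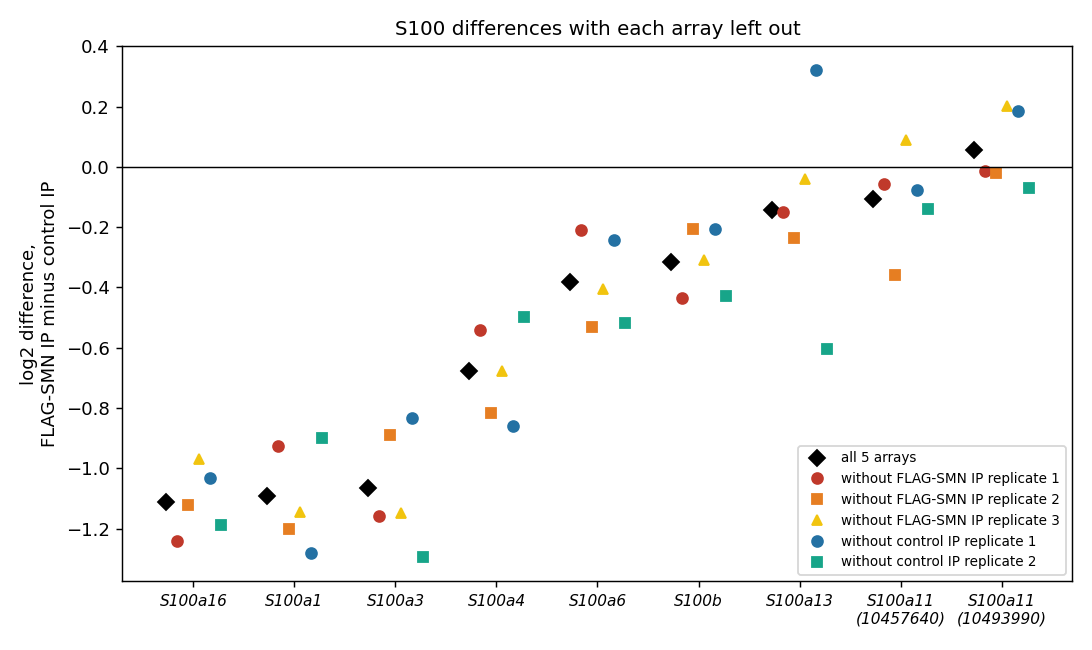
Log2 difference (FLAG-SMN IP minus control IP, y axis) of each S100 probe set over all 5 arrays (diamonds) and with each array left out. S100a16, S100a1, S100a3, S100a4, S100a6 and S100b stay below 0 in every case, S100b at about the level of the presumed controls. S100a13 and both probe sets of S100a11 lie on both sides of 0.

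S100a6 encodes calcyclin, which binds the ubiquitin ligase adaptor calcyclin-binding protein. It was far above the presumed controls in every array, exceeding at least 98.1% of them. Its log2 values were 10.65, 11.29 and 11.04 in FLAG-SMN IP, against 11.51 and 11.24 in control IP. FLAG-SMN IP replicate 2 lay above control IP replicate 2, so the groups overlapped, if only by 0.055 log2 units. The log2 difference was -0.38 (SE 0.24; 95% confidence interval -0.95 to 0.19; limma adjusted p = 0.713), an interval that leaves out a 2-fold difference in either direction. The gene of its binding partner, Cacybp, had 11.42, 10.82 and 11.30 in FLAG-SMN IP and 11.35 and 11.74 in control IP, a log2 difference of -0.36 (SE 0.25; limma adjusted p = 0.755).

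S100a13 takes part in the release of the growth factor FGF1 and of interleukin 1 alpha, proteins that leave the cell without a signal peptide. It had log2 values of 7.73, 7.90 and 7.52 in FLAG-SMN IP, all lying between the 2 control IP values of 8.32 and 7.40. The control arrays thus differed more from each other than the FLAG-SMN arrays did, with an SD of 0.19 in FLAG-SMN IP and 0.65 in control IP. The log2 difference was -0.14 (SE 0.30; 95% confidence interval -0.85 to 0.57) with both controls, 0.32 without control IP replicate 1 and -0.60 without control IP replicate 2. Direction was therefore not settled for S100a13. Fgf1, its cargo, had a log2 difference of -0.58 (limma adjusted p = 0.334).

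S100b was close to the presumed controls in all arrays, above 42.3% to 49.3% of them in FLAG-SMN IP and 46.8% to 51.7% in control IP. Its log2 values were 4.40, 3.95 and 4.15 in FLAG-SMN IP, against 4.59 and 4.37 in control IP, and the groups overlapped. The log2 difference was -0.32 (SE 0.21), and no fold is given. Of the 6 astrocyte markers listed beside it, 0 had an unadjusted p under 0.05, and their differences ran from -0.080 to 0.16. Their summed log2 values ran from 26.5 to 27.2 in FLAG-SMN IP, and from 26.1 to 27.1 in control IP. Gfap, the defining astrocyte filament gene, was at 4.21, 4.47 and 4.35 in FLAG-SMN IP and at 4.50 and 4.18 in control IP, at about the presumed control medians. The glutamate transporter genes Slc1a2 and Slc1a3 had the smallest p-values of that list, with differences of 0.16 and 0.10; the groups of Slc1a2 were apart, with FLAG-SMN IP higher.

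S100a11 encodes calgizzarin, a partner of annexin A1. Probe set 10493990 has an ID that falls among those of chromosome 3 genes, where S100a11 lies (10 of the 10 nearest named IDs). It had 4.81, 4.82 and 4.38 in FLAG-SMN IP, against 4.74 and 4.49 in control IP. Probe set 10457640 carries the same gene symbol, but its 10 nearest named IDs all belong to genes of chromosome 18. Its values were 4.91, 5.51 and 4.62 in FLAG-SMN IP, against 5.15 and 5.09 in control IP. Which transcript this second probe set reads was not tested. Log2 differences were 0.056 (SE 0.22) and -0.11 (SE 0.28), and for both the arrays of the groups were interleaved. Both probe sets lay above 48.9% to 68.5% of the presumed controls, and no fold is given.

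**Figure D3:**
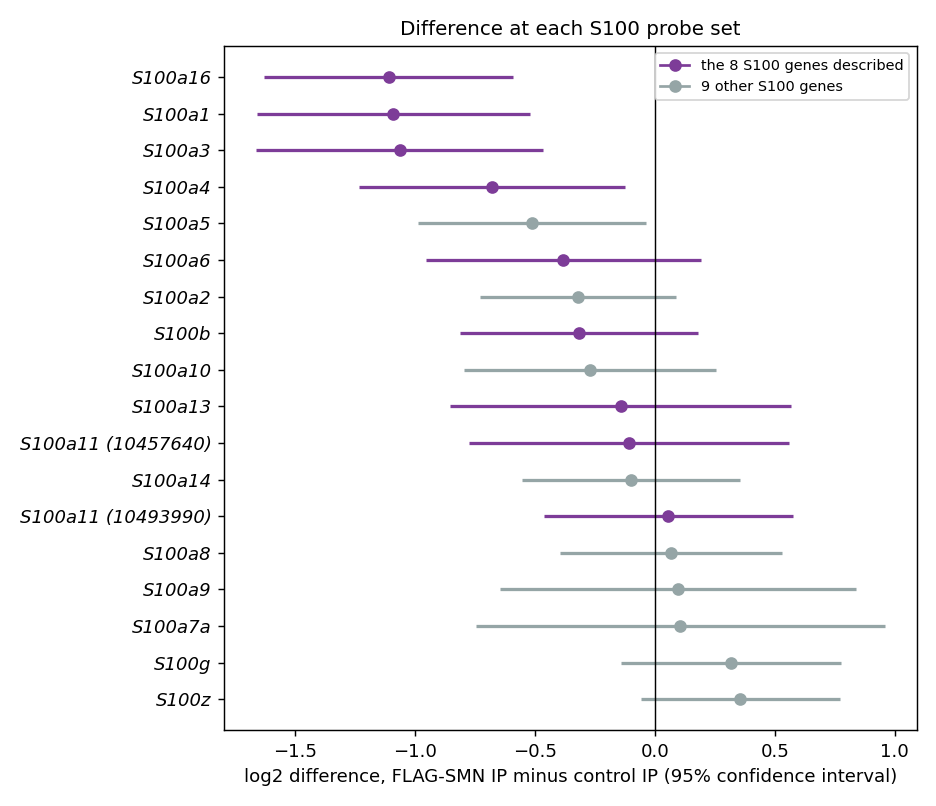
Log2 difference between FLAG-SMN IP and control IP (x axis) at the 9 probe sets of the 8 S100 genes and at 9 other S100 genes, with 95% confidence intervals from the limma fit. The intervals of S100a16, S100a1, S100a3, S100a4 and S100a5 leave out 0 before any adjustment for the number of probe sets, and the remaining intervals include it.

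Other S100 genes were taken from a family list, and 9 of its 11 genes had a probe set of their own. At an unadjusted p under 0.05, 1437 of all 19937 named genes were lower and 647 higher, each at its brightest probe set. Of the 9 other S100 genes 1 was lower and 0 higher, and their median log2 difference was 0.067. Apart from S100a10, their group means ran from 3.54 (S100a8) to 5.26 (S100a7a), below the median tested probe set (5.33). That median difference therefore mostly describes dim probe sets. S100a5, the one lower gene, lies between S100a4 and S100a6 and had 4.28, 4.27 and 4.65 in FLAG-SMN IP, against 4.96 and 4.86 in control IP, with a log2 difference of -0.51 (SE 0.20; limma adjusted p = 0.439). These levels are near the presumed controls. S100z was next by p, at 0.36 (limma adjusted p = 0.568), with means of 4.25 in FLAG-SMN IP and 3.90 in control IP, also near the presumed controls. S100a10, the member that binds no calcium and forms a complex with annexin A2, was far brighter than the presumed controls, exceeding at least 98.6% of them. It had log2 values of 11.29, 11.49 and 10.99 in FLAG-SMN IP, against 11.68 and 11.37 in control IP; its difference was -0.27 (SE 0.22; 95% confidence interval -0.80 to 0.26). Of the 17 S100 genes with a probe set, only S100a6 and S100a10 exceeded over 98% of the presumed controls, and neither had groups apart.

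Along chromosome 3, the 9 S100 genes at orders 1 to 9, S100a1 to S100a6, all had differences below 0, against 46.9% of all tested probe sets. These 9 included each S100 gene that was lower at the unadjusted cut-off, and the members among them were chosen by these differences. S100a2 and S100a14 in this run, and S100a8 and S100a9 beyond it, had group means of 3.54 to 4.48. Those means are at about the level of the presumed controls or below it, so the signs of these genes say little. The relation between order and difference was not tested. S100a1, at one end of the first run of genes, stood at -1.09 beside S100a13 at -0.14 and S100a14 at -0.098. The next S100 genes, S100a16 and S100a3, stood at -1.11 and -1.06, S100a2 at -0.32, S100a4 at -0.68 and S100a5 at -0.51. S100a6 stood at -0.38. Beyond it S100a7a stood at 0.11, S100a8 at 0.067, S100a9 at 0.097 and S100a11, by its chromosome 3 probe set, at 0.056, while S100a10 stood at -0.27. Chtop, which flanks S100a1 on its other side and encodes a chromatin and mRNA export protein, had a difference of -0.21 (SE 0.27). Dip2a, next to S100b, had 0.53 (SE 0.20; limma adjusted p = 0.426), opposite in sign to S100b, and Tchhl1, next to S100a11, had 0.18 (SE 0.19). The other annotated neighbours that are not S100 genes had no probe set of their own. Where probes lie within the overlapping spans of S100a1 and S100a13 is not given in the sources used here.

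**Figure D4:**
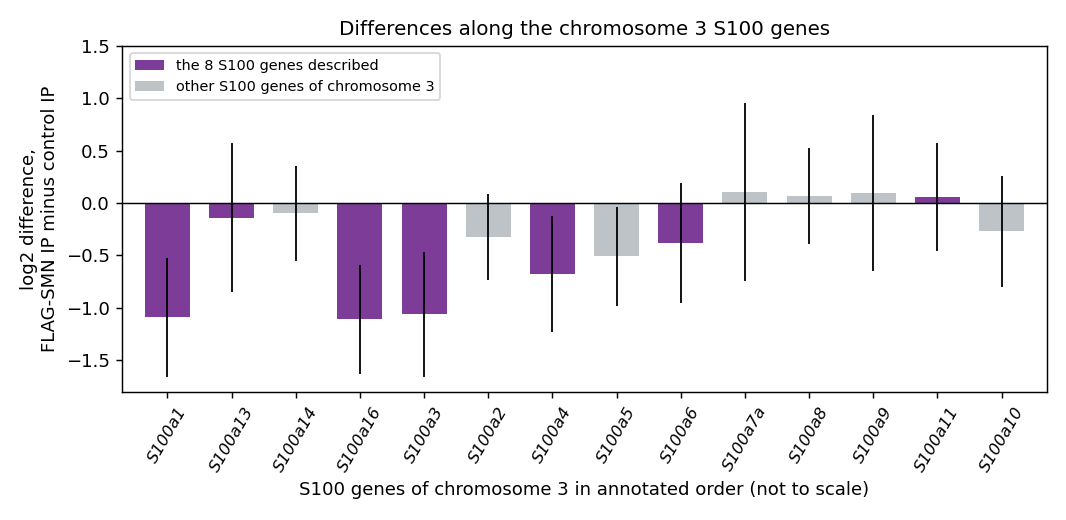
Log2 difference (FLAG-SMN IP minus control IP, y axis) of the 14 S100 genes of chromosome 3 with a probe set, in annotated order; bars are differences, lines 95% confidence intervals, and S100a11 is shown by its chromosome 3 probe set. The genes from S100a1 to S100a6 lie below 0, S100a7a, S100a8, S100a9 and S100a11 just above it, and S100a10 at -0.27, with wide intervals around most of them. S100a2, S100a14, S100a8 and S100a9 are at about the level of the presumed controls or below it.

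The annexin genes, which encode membrane-binding partners of several S100 proteins, had a median log2 difference of 0.042. At the unadjusted cut-off of 0.05, 647 of all 19937 named genes stood higher and 1437 lower, each gene at its brightest probe set. These are the counts to set beside this list and those below. Of the 12 measured annexin genes, 3 stood higher and 0 stood lower. Anxa2, whose protein pairs with that of S100a10, had log2 values of 9.50, 9.14 and 9.31 in FLAG-SMN IP, against 5.96 and 7.29 in control IP, a log2 difference of 2.69 (limma adjusted p = 0.0957). Anxa3 had a difference of 1.07 (limma adjusted p = 0.133), and the third gene was Anxa6 at 0.96 (limma adjusted p = 0.307). The 2 RNAs of the annexin A2 complex thus had unlike values, 2.69 for Anxa2 and -0.27 for S100a10; the difference between them was not tested.

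A list of S100 receptors and binding partners had 21 measured genes, of which 4 stood higher and 5 lower at the same unadjusted cut-off, and 0 passed the adjusted threshold. Ahnak, which encodes a giant scaffold protein bound by S100a10 and S100b, had log2 values of 6.97, 7.06 and 7.30 in FLAG-SMN IP, against 6.09 and 6.29 in control IP (difference 0.92; limma adjusted p = 0.185). Syn1, the synapsin gene, had 6.0, 5.34 and 5.17 in FLAG-SMN IP, against 6.69 and 6.79 in control IP (difference -1.24; limma adjusted p = 0.199). Both genes kept the groups apart, in opposite directions. The remaining higher genes were Ppfibp1 (1.02), Syn2 (0.61) and Sugt1 (0.60), and the remaining lower ones Syt1 (-0.89), Tlr4 (-0.69), Atp2a2 (-0.63) and Fgf1 (-0.58). Among them Ppfibp1 encodes liprin beta 1, a partner of S100a4, Sugt1 a co-chaperone bound by S100a6, Syt1 a synaptic calcium sensor bound by S100a13, and Tlr4 a receptor of the S100a8 and S100a9 complex. Tlr4 was near the presumed controls, with means of 4.14 in FLAG-SMN IP and 4.84 in control IP. Partners of S100a1 did not all share its sign: beside Syn1, the calcium pump gene Atp2a2 had -0.63, Syn2 had 0.61 and the ryanodine receptor genes Ryr1 and Ryr2 had -0.32 and 0.048. Ryr1 and Ryr2 were dim, with group means of 4.87 to 5.19. Myh9, the myosin partner of S100a4, had 0.037, and Ager had 0.29.

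Among 41 measured genes of other EF-hand proteins, the unadjusted cut-off of 0.05 gave 1 higher and 0 lower, and the median log2 difference was 0.057. Calu, which encodes the secretory pathway protein calumenin, was the higher one at 0.89 (SE 0.33; limma adjusted p = 0.417), and Capns1, the small calpain subunit gene, followed at -0.78 (limma adjusted p = 0.501). The 8 S100 genes had a median of -0.53 with S100a11 at its brighter probe set (10457640), and of -0.38 over their 9 probe sets. All 19937 named genes had 0.0019 and all tested probe sets 0.018. The 8 genes were chosen by these differences, so nothing is read from how their median stands to the others.

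**Figure D5:**
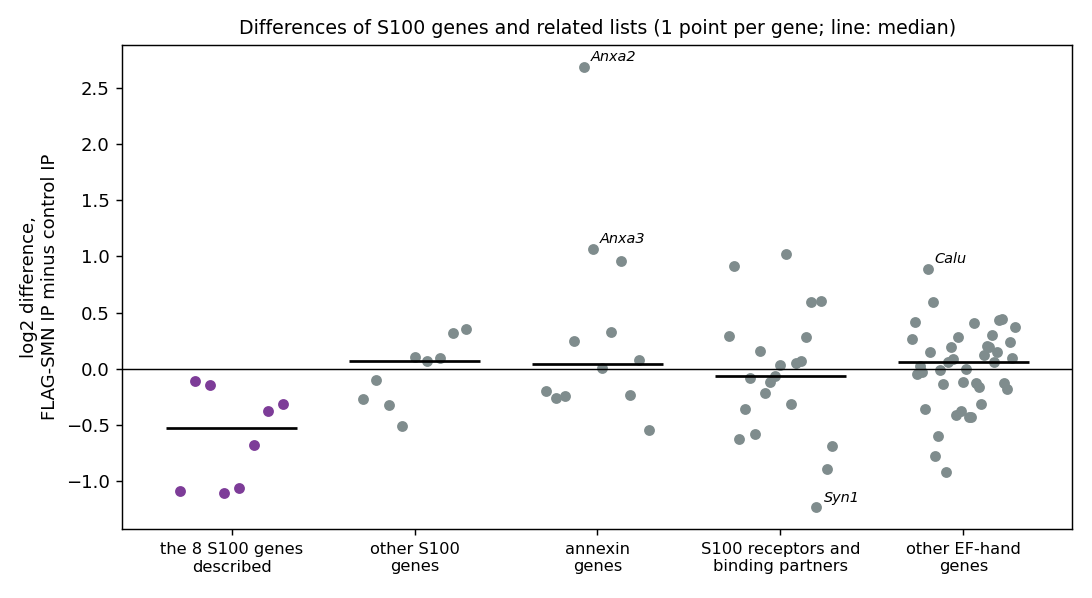
Log2 difference (FLAG-SMN IP minus control IP, y axis) of the 8 S100 genes, which were chosen by these differences, and of 4 related lists. There is 1 point per gene at its brightest probe set, with the list median as a line. The 8 S100 genes run from -1.11 to -0.11, with S100a11 at probe set 10457640 (its chromosome 3 probe set stands at 0.056); the other S100 genes run from -0.51 to 0.36, the annexins from -0.55 to 2.69, the partners from -1.24 to 1.02 and the EF-hand genes from -0.92 to 0.89.

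Some neuroblastoma and neuronal markers had lower values in FLAG-SMN IP, as S100a16, S100a1 and S100a3 did, and others did not. Of 7 measured noradrenergic markers 4 were lower and 1 higher at the same cut-off, and their summed log2 values were 50.7 to 54.0 in FLAG-SMN IP, against 59.0 and 60.8 in control IP. Th, the rate-limiting enzyme of catecholamine synthesis, had 5.44, 4.58 and 4.80 in FLAG-SMN IP and 6.91 and 6.85 in control IP, and Chga, a granule protein gene, had a difference of -1.88 (limma adjusted p = 0.108). The other lower genes were Dbh (-2.23), the noradrenaline synthesis enzyme, and Chgb (-2.06), a second granule protein gene, and the higher one was Gata3 (0.50), a transcription factor gene. Hand2 (-0.016) and Phox2a (-0.19), also transcription factor genes, had overlapping groups. Among 12 motor neuron and neuronal markers 2 were lower, Snap25 (-2.14), a vesicle fusion gene, and Nefh (-0.89), a neurofilament gene, and 0 higher; their summed values were 71.1 to 80.0 in FLAG-SMN IP, against 78.6 and 79.3 in control IP, so 1 FLAG-SMN IP array, replicate 1, exceeded both controls. Their median log2 difference was -0.10, and 4 of the 12 differences were above 0, the highest for Mnx1 (0.38). Mnx1 had means of 3.97 in FLAG-SMN IP and 3.59 in control IP, below the medians of the presumed controls. Of the others above 0, Prph (0.28) was bright, while Chat (0.093) and Lhx3 (0.30) were dim, with group means of 4.45 to 5.05. The part of these marker differences in the S100 values was not tested. Pmp22, which many cells besides Schwann cells express, was the brightest of the glial and blood cell markers, with a mean of 9.51 in FLAG-SMN IP and 9.94 in control IP; the next, Slc1a2, had means of 5.99 in FLAG-SMN IP and 5.83 in control IP. The myelinating cell list had 0 of 6 measured genes at an unadjusted p under 0.05, led by Sox10 (0.43), and summed to 32.6 to 33.4 in FLAG-SMN IP, against 34.7 and 31.8 in control IP. The microglia and blood list had 0 of 6, led by Cd68 (-0.48) and Cx3cr1 (0.18), and summed to 26.3 to 27.3 in FLAG-SMN IP, against 27.8 and 26.2 in control IP.

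Likeness was measured as the Euclidean distance between log2 profiles over the 5 arrays, each less its own mean, among 10783 named genes brighter than the median probe set. The genes nearest to S100a16 were Hoxa5 (distance 0.155) and Xkr7 (0.187), where the profile of S100a16 itself had a length of 1.28. Mindy2 (0.0790) and Pom121 (0.139) were nearest to S100a1, and Mir100hg (0.129) and Selenoi (0.131) to S100a4. Beside S100a16, S100a1 and S100a4, S100a3 had no equally close match. Its nearest genes, Fdft1 (0.331) and Slc1a5 (0.349), were further away, where its own profile had a length of 1.28. S100a1 and S100a16 thus had similar differences but different profiles: FLAG-SMN IP replicate 1 was the lowest array for S100a1 and the highest of its group for S100a16. For S100a6 the nearest genes were Ston2 (0.121) and Timm8b (0.128), for S100a13 Tns1 (0.161) and Reep2 (0.189), and for S100b Alg5 (0.0816) and Smcr8 (0.0865). For S100a11 they were 1700016K19Rik (0.0441) and Peg12 (0.0570) for 10493990, and Polr2i (0.270) and 5830417I10Rik (0.272) for 10457640. The profiles of S100b, 10493990 and 10457640 were shorter, at 0.498, 0.405 and 0.656, so their distances are not directly comparable with that of S100a3.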

How the data were processed

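RNA of 5 anti-FLAG precipitates was measured on single-colour Affymetrix arrays from 300 to 500 ng of RNA. The deposited log2 values (scale read from their range, 1.28 to 14.15) were made with RMA, per the submitters' processing notes; its version is not given in the sources used here. RMA brings arrays toward a common distribution, so a general difference in recovered RNA is not visible. Of 34760 probe sets, 6573 with IDs below the lowest ID in the platform annotation were left out as presumed controls. Symbols came from that annotation, and all 8 S100 genes matched the RefSeq table by gene ID.

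The 2 groups were compared by limma 3.58.1 under R 4.3.3 (linear models with empirical Bayes moderation, 2-sided and without a block, 3 residual and 3.8 prior degrees of freedom), with Benjamini-Hochberg adjustment over the 28187 tested probe sets. Calls were made at 0.05. The fit was also run on simulated data with independent noise of equal spread in every array. The real arrays were unequal, with estimated array weights from 0.45 to 2.25, so that run does not show how the fit performs on them. The number of arrays limits precision. Lists used the brightest probe set of a gene. Genes named from a list are the 2 of smallest unadjusted p and a few fixed names (among them Anxa2, S100a10, Cacybp, Chat, Th and Gfap); others of those lists, and Smn1, were added after values were seen. Likeness took the 2 nearest genes per probe set. The S100 genes and all lists were chosen with earlier results of these data known. Tried beside it were cyclic loess, centring each array on its brighter probe sets, testing the brighter probe sets only, trend and robust moderation, array weights, the replicate block, all probe sets of the table, gene means and leaving out each array. Figures used matplotlib 3.10.9 in Python 3.11.15.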

Additional observations from a re-analysis of the deposited data

How the results depend on the processing

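The 9 probe sets past the adjusted threshold numbered 0 under cyclic loess scaling (limma; at an unadjusted p under 0.05, 1400 were higher and 1781 lower), 0 over all probe sets of the table (1236 and 2125), 41 when centred on the brighter probe sets, 86 with array weights and 54 on gene means. With the replicate block 0 passed (unadjusted, 998 higher and 1551 lower). Number 3 occurs only in FLAG-SMN IP, so the block takes up that array. Its log2 differences therefore equal those without FLAG-SMN IP replicate 3, and the 2 settings are not separate checks of a difference. The numbers 1 and 2 occur in both groups, and deviations from the group means correlated at 0.13 for number 1 and -0.20 for number 2. FLAG-SMN IP replicate 3 correlated at 0.42 with control IP replicate 2 and at -0.42 with control IP replicate 1. The deviations of 2 control arrays mirror each other, so these correlations cannot decide whether arrays were paired. The labels do not say that a number marks a shared culture or day, so the main fit used no pairing. Leaving out 1 array gave 0 to 350, with 350 only without FLAG-SMN IP replicate 1 and 0 without each of the others; where 1 control array was left it was assumed to vary like the FLAG-SMN IP arrays. The count of 4 S100 probe sets lower at an unadjusted p under 0.05 was 3 to 4 with an array left out, and 4 under each other alternative run on probe sets. The median of the 9 probe sets, -0.38, ran from -0.53 to -0.24 with an array left out: -0.53 without FLAG-SMN IP replicate 2, -0.52 without control IP replicate 2 and -0.24 without control IP replicate 1. S100a16 ranged from -1.24 to -0.97 and passed only without FLAG-SMN IP replicate 1. Signs turned for S100a13 (-0.60 to 0.32 with an array left out) and S100a11: probe set 10493990 gave -0.040 with array weights and -0.071 to 0.20 with an array left out, and probe set 10457640 gave 0.089 with the replicate block and -0.36 to 0.089 with an array left out. The causes were not tested. S100a1, S100a3, S100a4, S100a6 and S100b kept a negative difference under each alternative in which they were tested. For S100b this is at about the level of the presumed controls. Their own array medians were also lower in FLAG-SMN IP (4.30 to 4.45) than in control IP (4.49 and 4.55).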
